A study of Arabidopsis thaliana with 12 samples.

Results

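In Arabidopsis thaliana, 6 nuclear genes for proteins of the plastid ribosome were followed, 2 of the small ribosomal subunit (PRPS6, AT1G64510, and PRPS10, AT3G13120) and 4 of the large one (PRPL17, AT3G54210; PRPL5, AT4G01310; PRPL34, AT1G29070; PRPL29, AT5G65220). They were found by locus in the annotation of the array, where each had 1 probe assigned to that gene alone, and they are 6 of the 691 genes with such a probe. Total RNA came from wild-type plants of the ecotype Columbia 0. One group of 6 samples had been exposed to high light of 1000 µE for 1 h, and the other group of 6 had been grown in normal light of 80 µE and is titled 0 h. No tissue, plant age or origin of the replicates is named, so p-values reflect only the scatter among the arrayed samples, part of which may be technical, and effects of the light and of the elapsed hour cannot be told apart.

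The plastid ribosome is of the bacterial type and makes the proteins that the plastid genome encodes, among them core subunits of the photosystems and the large subunit of Rubisco. Most of its ribosomal proteins are encoded in the nucleus, made in the cytosol and imported, so that nuclear transcripts of both subunits feed 1 particle. In green tissue these genes are expressed along with those of the photosynthetic apparatus. The small subunit decodes the mRNA, and the large subunit forms the peptide bond and holds the exit tunnel.

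The genes of the small subunit lay lower after high light on each of 5 scales, while the 2 genes of the large subunit that were above 0 in all samples took a direction that depended on the scale. Relative to the other probes, PRPS6 and PRPS10 fell after quantile normalisation, with log2 changes of -2.65 and -1.74. PRPL17 and PRPL5 had log2 changes of -0.49 and -0.44 on that scale and of 0.61 and 0.95 in the values as deposited. PRPL34 and PRPL29 were at or near 0 in several samples. PRPL34, though of the large subunit, had negative log2 changes on each of the 5 scales, from -6.40 to -4.30. The size of these changes rests on its zeros, and limma called it lower with cyclic loess alone among the 5. The contrast between the subunits thus covers 2 of the 4 large subunit genes, PRPL17 and PRPL5, and PRPL34 did not share their turn of direction.

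The scale matters because the groups were not on a common level. The deposited values are intensities in arbitrary units on a linear scale that ends at 100, for 3439 probes. Their median per sample lay between 0.338 and 0.357 in high light and between 0.115 and 0.130 in normal light, and 167 to 209 probes per sample stood at 0 in high light against 396 to 470 in normal light. The median probe had a log2 change of 1.47 as deposited and 0.16 after quantile normalisation. That step gives all samples the same distribution, but each 0 was afterwards set to the lowest positive value, which affects more probes in normal light. The scaling done by the authors is not stated in the labels, and how far the difference in level is technical was not tested. As to tissue, 3 of 16 genes chosen as marks of green tissue had a probe of their own and all were above 0 in the 12 samples. They were the antenna gene LHB1B2 (8.88 to 12.1 in high light, 17.9 to 36.8 in normal light), the Calvin cycle gene PRK and the photosystem II gene PSBW (47.1 to 73.3 in high light, 24.2 to 32.1 in normal light).

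In bacteria the protein S6 binds the RNA of the small subunit next to S18. PRPS6 had a deposited intensity of 0.0596 in the lowest, 0.106 in the median and 0.185 in the highest high light sample, against 0.142, 0.213 and 0.290 in normal light. The groups overlapped, since high light sample 2 (0.185) exceeded normal light sample 3 (0.142). The means were 0.114 ± 0.0435 in high light and 0.225 ± 0.0564 in normal light (SD, n = 6 each), a ratio of 0.507. In such bulk RNA, fewer cells of a type and less RNA per cell cannot be told apart. Within a sample, the position of the PRPS6 probe among all probes was between the 11.7th and the 26.9th percentile in high light and between the 52.7th and the 74.7th in normal light, with no overlap. For 17.4% of all probes the high light positions lay below without overlap. Such a position follows the rank of a probe in its own sample, so multiplying a whole column leaves it as it is. It says nothing of the abundance of 1 transcript against another. Probes at 0 share a mean rank that is lower where zeros are fewer, as in high light, and the 17.4% includes such probes.

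In bacteria S10 sits in the head of the small subunit and also acts in transcription antitermination. PRPS10 had deposited intensities of 0.214, 0.331 and 0.394 (lowest, median, highest) in high light and of 0.391, 0.466 and 0.620 in normal light. The groups met at their edges, where high light sample 1 (0.394) exceeded normal light sample 5 (0.391). The means were 0.316 ± 0.0667 in high light and 0.485 ± 0.0943 in normal light (SD, n = 6 each), a ratio of 0.651. The PRPS10 probe stood between the 33.6th and the 54.6th percentile of its sample in high light and between the 76.5th and the 85.3rd in normal light, again with no overlap.

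**Figure D1:**
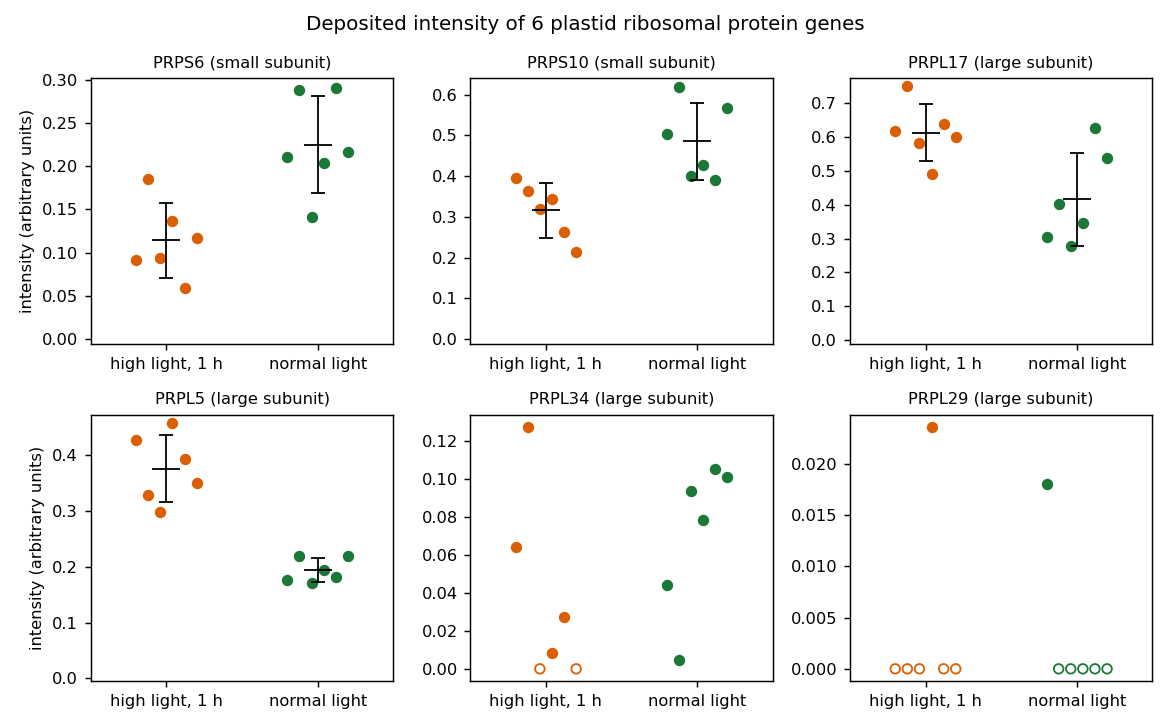
Deposited intensity (arbitrary units, linear axes that differ between panels) of the 6 genes in the 6 high light samples (left, orange) and the 6 normal light samples (right, green), in order of sample number. Each point is 1 sample, open circles are values listed at 0, and the bars give mean ± SD for the 4 genes without zeros. PRPS6 and PRPS10 average 0.114 and 0.316 in high light, against 0.225 and 0.485 in normal light, while PRPL5 averages 0.376 in high light against 0.194 in normal light.

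L17 lies in bacteria on the surface of the large subunit near the mouth of the exit tunnel. PRPL17 had deposited intensities of 0.490, 0.610 and 0.750 (lowest, median, highest) in high light and of 0.277, 0.374 and 0.627 in normal light. Normal light samples 5 (0.627) and 6 (0.538) lay within the range of high light, and the other 4 normal light samples, at 0.277 to 0.402, lay below it. The means were 0.613 ± 0.0845 in high light and 0.416 ± 0.139 in normal light (SD, n = 6 each). In percentile position PRPL17 overlapped widely, with 62.6 to 76.6 in high light and 70.5 to 83.8 in normal light.

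L5 binds, in bacteria, the smallest ribosomal RNA in the central protuberance of the large subunit. PRPL5 had deposited intensities of 0.299, 0.373 and 0.458 (lowest, median, highest) in high light and of 0.172, 0.188 and 0.220 in normal light. All 6 high light samples lay above all 6 normal light samples on this scale, as they did for 44% of all probes. The means were 0.376 ± 0.0606 in high light and 0.194 ± 0.0217 in normal light (SD, n = 6 each), a ratio of 1.94. In percentile position the order turned, with 45.6 to 59.8 in high light and 58.0 to 67.9 in normal light, and the groups overlapped at the edge.

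L34 is one of the smallest proteins of the bacterial large subunit. PRPL34 was listed at 0 in 2 of 6 high light samples (3 and 6) and in 0 of 6 normal light samples. Its deposited intensities were 0, 0.0180 and 0.127 (lowest, median, highest) in high light and 0.00447, 0.0858 and 0.105 in normal light. High light sample 2, at 0.127, was the highest of all 12, and the range of normal light lay inside that of high light. In percentile position PRPL34 spanned 2.49 to 17.5 in high light and 12.9 to 43.9 in normal light, where normal light sample 2 (12.9) alone came below the highest high light sample.

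L29 borders the exit tunnel of the bacterial large subunit. In each group, 5 of 6 samples listed PRPL29 at 0. Its values above 0 were 0.0236 in high light sample 4 and 0.0180 in normal light sample 1. No fold can be drawn from these values, and the 2 groups did not differ in the number of zeros, whereas zeros over all probes were fewer in high light.

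**Figure D2:**
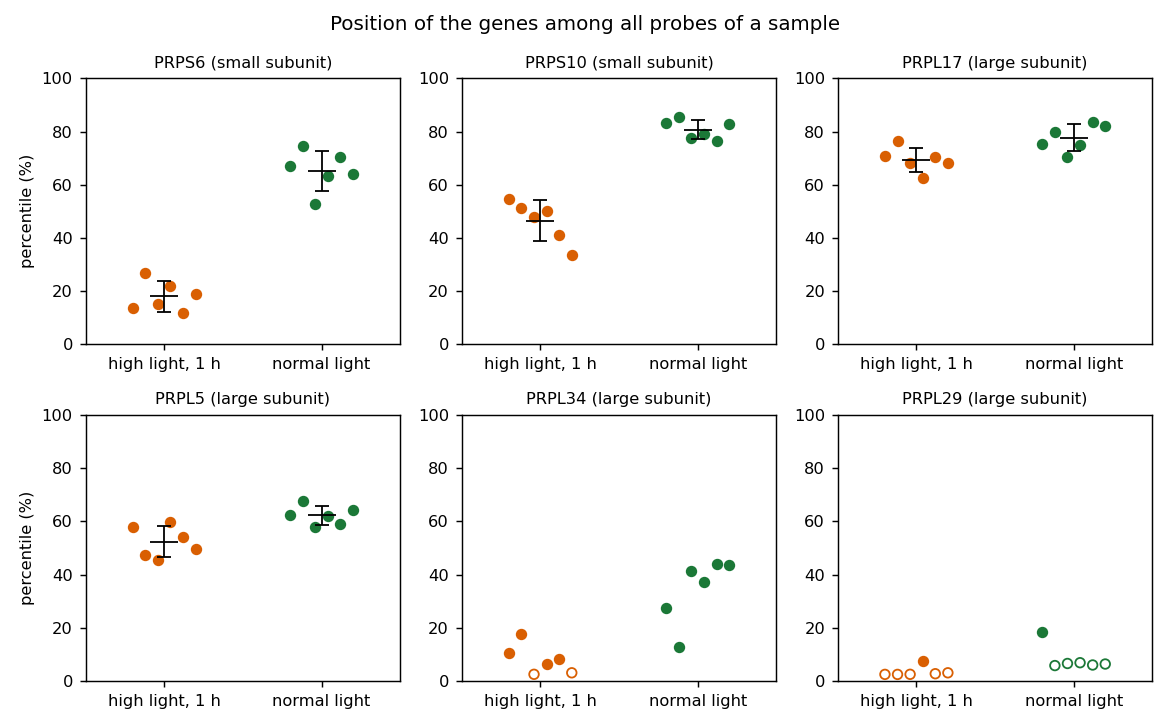
Percentile of each gene's probe among the 3439 probes of its own sample, for 6 high light samples (left, orange) and 6 normal light samples (right, green). Points are samples, open circles are values listed at 0 (tied probes share a mean rank) and bars give mean ± SD for the 4 genes without zeros. PRPS6 averages 18.0 in high light against 65.3 in normal light and PRPS10 46.4 against 80.8, while PRPL17 (69.4 against 77.8) and PRPL5 (52.4 against 62.3) overlap.

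Log2 values after quantile normalisation were compared by limma, with adjustment over all 3439 probes and a threshold of 0.05 on the adjusted p. Of the 6 genes, 4 were lower in high light, 0 were higher and 2 did not pass, where limma called 37.8% of all probes, 22% lower and 15.8% higher. Both small subunit genes and 2 of 4 large subunit genes were among the 4. All 4 were above 0 in all samples, as were 2233 probes, of which 33.4% were called lower. PRPS6 had a log2 change of -2.65 (SE 0.298, limma adjusted p = 4.9e-05) and PRPS10 one of -1.74 (SE 0.184, limma adjusted p = 3.2e-05). For both the normalised values of the groups did not overlap, with high light below, as was the case for 16.3% of all probes. PRPL17 had a log2 change of -0.49 (SE 0.173, limma adjusted p = 0.0445) and PRPL5 one of -0.44 (SE 0.137, limma adjusted p = 0.0264), with overlapping groups. PRPL34, with a limma adjusted p of 0.0504, and PRPL29, with 0.914, did not pass. The median change was -1.12 for the 6 genes, and also for the 4 that were above 0 in all samples. The median was 0.16 for all probes and -0.23 for the probes above 0 in all samples.

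Samples with neighbouring numbers within a group (1 and 2, 3 and 4, 5 and 6) tended to resemble each other, with correlations across probes of 0.905 to 0.977 against 0.848 to 0.953 for other pairs of the same group (values under 0.05 raised to 0.05). If such pairs were repeats of 1 RNA, the comparison would be 3 against 3. With these pairs averaged, PRPS6 (limma adjusted p = 0.0075) and PRPS10 (0.016) stayed below the threshold, where limma called 12.5% of all probes lower. PRPL17 (limma adjusted p = 0.23) and PRPL5 (0.11) did not pass in that comparison. PRPL17 also lost its call in 8 of 12 limma comparisons that left out a single sample (high light 1, 3, 4, 5 or 6, normal light 2, 5 or 6), at adjusted p values of up to 0.0931. PRPL5 lost it in 4 of 12 (high light 2, 3 or 6, normal light 2), at up to 0.0577.

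The direction of PRPL17 and PRPL5 and the size of the change of PRPS6 and PRPS10 moved with the scaling. PRPL34, which has zeros, had negative log2 changes on the 5 scales, from -6.40 after quantile normalisation to -4.30 with cyclic loess, and limma called it lower with cyclic loess alone among these (adjusted p = 0.0161). In the values as deposited, PRPS6 had a log2 change of -1.03 (limma adjusted p = 0.00954) and PRPS10 one of -0.63 (0.016), where limma called 5.64% of all probes lower. On the same scale PRPL17 had a log2 change of 0.61 (limma adjusted p = 0.032) and PRPL5 one of 0.95 (1.9e-04), where 49.4% of all probes were called higher. With columns brought to a common mean, PRPS6 (-1.26) and PRPS10 (-0.86) were called lower and PRPL5 (0.72) higher, while PRPL17 (0.38) did not pass, beside 7.97% of all probes called lower and 41.8% higher. With a common median all 4 were called lower, at -2.52 for PRPS6, -2.12 for PRPS10, -0.87 for PRPL17 and -0.54 for PRPL5, as were 26.5% of all probes. With cyclic loess PRPS6 (-2.50) and PRPS10 (-1.73) were called lower and PRPL17 (-0.38) and PRPL5 (-0.30) did not pass, with 18.4% of all probes called lower.

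Averaging the pairs of samples on the deposited scale left PRPS6 just below the threshold (limma adjusted p = 0.048) while PRPS10 no longer passed (0.12). PRPL5 kept a higher level there (limma adjusted p = 0.015) and PRPL17 did not pass (0.17). This setting called 2.91% of all probes lower and 30.8% higher. With the pairs averaged on the scale of a common mean, PRPS6 passed (limma adjusted p = 0.035) and PRPS10 did not (0.077). The exact rank-sum test (2-sided) of the percentile positions, chosen after the data were seen, called PRPS6 and PRPS10 lower, each with an exact p of 0.0022, the smallest it can give, and an adjusted p of 0.0068. It also called PRPL5 (adjusted p = 0.022) and PRPL34 (0.012) lower and did not call PRPL17 (0.054) or PRPL29 (0.081), where 24.5% of all probes were called lower. Zeros share a mean rank, which is lower in high light because zeros were fewer there. For PRPL29 a 0 stood at 2.44 to 3.05 in high light and at 5.77 to 6.85 in normal light. Probes with zeros can score lower in this test by that alone, also within the 24.5%.

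**Figure D3:**
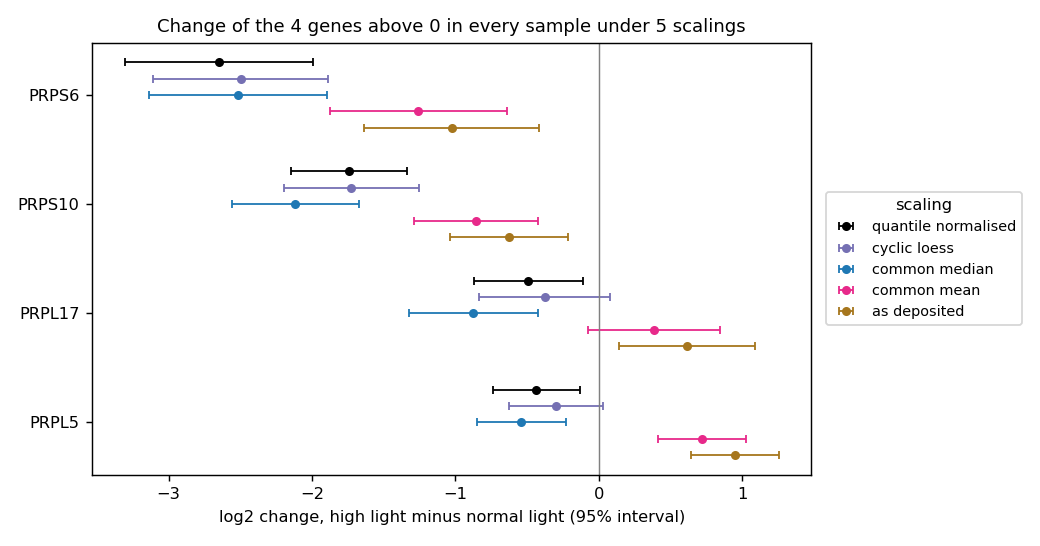
Log2 change, high light minus normal light, of the 4 genes above 0 in every sample (rows), with 95% intervals from limma (n = 6 each), under 5 scalings (colours). PRPS6 and PRPS10 lie left of 0 under each scaling, from -2.65 to -1.03 and from -2.12 to -0.63, while PRPL17 and PRPL5 lie on both sides, up to 0.61 and 0.95.

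Setting the small against the large subunit within each sample removes any factor common to a column. It does not remove a difference between columns that varies with intensity. The log2 ratio of 2 genes was taken in each sample for the 4 pairs of a small with a large subunit gene that were above 0 throughout. Only its change between groups can be read, since the brightness of different probes is not comparable, and no p is given because the genes were chosen with earlier results known. With deposited values the ratio was lower in high light in all 4 pairs and the groups did not overlap in 3 of 4. The 4 pairs are built from 4 genes, each used in 2 pairs, and so are not separate observations. Among all 88831 pairs of single-gene probes above 0 in all samples, the groups did not overlap for 32.6%, also with deposited values.

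The largest difference of means was that of PRPS6 over PRPL5, with -2.73 to -0.83 in high light and -0.28 to 0.68 in normal light, a difference of -1.98. PRPS6 over PRPL17 spanned -3.42 to -1.85 in high light and -1.31 to -0.48 in normal light, a difference of -1.64. PRPS10 over PRPL5 spanned -0.72 to 0.14 in high light and 1.11 to 1.52 in normal light, a difference of -1.58. PRPS10 over PRPL17 overlapped, with -1.49 to -0.51 in high light and -0.68 to 0.73 in normal light, a difference of -1.24. The overlap came from normal light sample 5 (-0.68), in which PRPL17 was at its highest and PRPS10 at its lowest value of that group. After quantile normalisation the differences were -2.21, -2.16, -1.30 and -1.25 in the same order of pairs, so their size also moved with the scale.

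Within a subunit the groups overlapped. The log2 ratio of PRPS6 over PRPS10 had a difference of -0.40 as deposited and -0.91 after quantile normalisation, and that of PRPL17 over PRPL5 differences of -0.33 and -0.056. The mean change of PRPS6 and PRPS10 minus that of PRPL17 and PRPL5 was -1.73 on the log2 scale after quantile normalisation and -1.61 as deposited, with a common median and with a common mean. The agreement of the last 3 is by construction, since a factor common to a column cancels. With a single sample left out it lay between -1.82 and -1.61, and it was -1.77 with cyclic loess. Over all 6 genes the difference was -0.26, because the zeros of PRPL34 took the table's lowest positive value, and it was -1.53 with every value under 0.05 raised to 0.05.

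**Figure D4:**
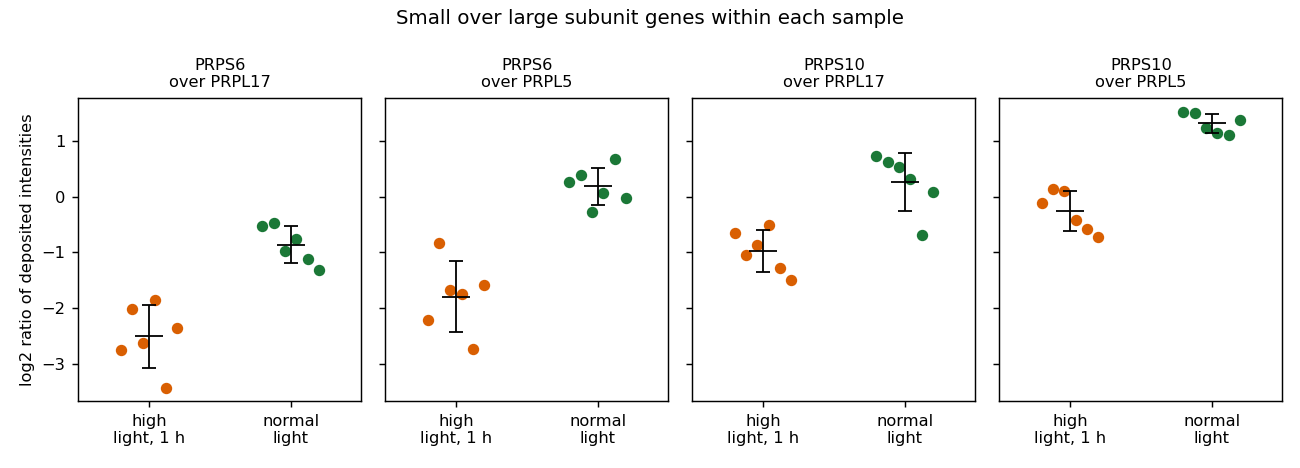
Log2 ratio of deposited intensities of a small over a large subunit gene in each sample, with high light (left, orange) and normal light (right, green), for 4 pairs of genes. Points are samples in order of their number and bars give mean ± SD (n = 6 each). High light lies below normal light without overlap in 3 pairs, and PRPS10 over PRPL17 overlaps through normal light sample 5 at -0.68.

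PRPS6 and PRPS10 lay in the lower tail of the changes, and PRPL17 and PRPL5 nearer the middle. Of all 3439 probes, 5.38% had a change as low as PRPS6 or lower, 9.65% as low as PRPS10 and 0.843% as low as PRPL34. Among the 2233 probes above 0 in all samples, whose median change was -0.23, the share was 1.12% for PRPS6 and 6.18% for PRPS10. There the shares for PRPL17 and PRPL5 were 39.9% and 42.6%. The change of PRPL34 rests on its zeros, with -6.40 where a 0 was given the lowest positive value and -1.37 (limma adjusted p = 0.0026) where all values under 0.05 were raised to 0.05, a setting that called 26.1% of all probes lower. Its adjusted p lay between 0.00257 and 0.20 over 24 alternatives, of which 7 called it lower.

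**Figure D5:**
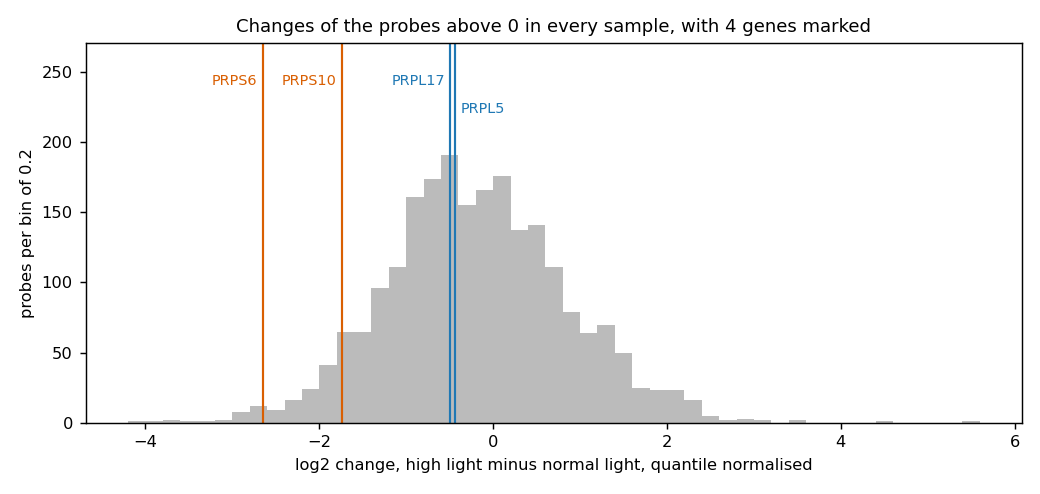
Number of probes (y axis) per bin of 0.2 in log2 change, high light minus normal light, after quantile normalisation (x axis), for the 2233 probes above 0 in every sample. Lines mark the small subunit genes (orange) and large subunit genes (blue), with PRPS6 at -2.65 and PRPS10 at -1.74 in the lower tail and PRPL17 at -0.49 and PRPL5 at -0.44 near the median of -0.23.

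The scatter between samples of a group differed among the genes. On the deposited scale the coefficient of variation in high light was 38.1% for PRPS6, 21.1% for PRPS10, 13.8% for PRPL17 and 16.1% for PRPL5. In normal light it was 25.1%, 19.4%, 33.4% and 11.2% in the same order of genes. PRPL5 was thus the steadiest of the 4 in normal light, and PRPL17 varied there through samples 5 and 6.

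The genes whose patterns were most like those of the ribosomal genes were sought among the other 421 single-gene probes above 0 in all samples. The measure was the root-mean-square difference between normalised log2 values over the 12 samples, after each probe's mean was subtracted. AT5G52530 came first for both small subunit genes, at 0.532 from PRPS6 and 0.255 from PRPS10, and had a log2 change of -1.87. PRPS6 was followed by AT5G59060 (0.558) and AT1G50000 (0.596), and PRPS10 by AT1G79220 (0.273) and PRK (0.279). PRK encodes phosphoribulokinase of the Calvin cycle, with 1.14 ± 0.0237 in high light and 3.12 ± 0.250 in normal light (deposited intensity, SD, n = 6 each). PRPL17 was closest to AT4G14050 (0.202), AT5G52810 (0.207) and AT5G36470 (0.233). PRPL5 was closest to AT3G54550 (0.181), AT5G36470 (0.183) and AT5G39410 (0.193). AT5G36470 stood near both large subunit genes, with a log2 change of -0.41 after normalisation and 0.74 as deposited, the turn of direction seen in PRPL17 and PRPL5. AT5G52810, AT3G54550 and AT5G39410 turned as well, whereas AT4G14050, the closest to PRPL17, did not (-0.61 and -0.16). The median probe also moved between these scales, from 0.16 to 1.47. Being chosen by likeness of normalised values, these genes have normalised changes close to those of PRPL17 and PRPL5 by selection. The share of all probes that turned is not given here, so the turn cannot be read as particular to them.

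Of the rest of the plastid ribosome little was measured by probes of a single gene. Of 41 nuclear genes listed for plastid ribosomal proteins, 14 of the small and 27 of the large subunit, the 6 genes described here were those with such a probe, and the other 35 were not analysed here. Of 11 plastid translation factors, 0 had a probe of their own. Of 12 assembly factors of the plastid ribosome, 1 had one, AT5G14910. Its deposited intensity was 0.306 to 0.437 in high light and 0.123 to 0.382 in normal light, with overlapping groups. Its log2 change was -0.77 after quantile normalisation (SE 0.259, limma adjusted p = 0.037) and 0.54 as deposited (0.12, not past the threshold), so that its direction turned with the scale as well.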

How the data were processed

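Total RNA of 12 samples was measured on arrays. The deposited table holds linear intensities, and the labels do not say how the authors scanned, corrected or scaled them. The number of arrays limits the precision. Column medians differed by a factor of up to 3.10, so columns were quantile-normalised between arrays. Each 0 afterwards took the lowest positive value, 9.02e-06, and limma 3.58.1 (R 4.3.3) tested the log2 values (lmFit, eBayes, 2-sided, Benjamini-Hochberg over 3439 probes). The script was tested on simulated data.

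Groups and sample numbers came from the titles. Probes were named through the platform annotation and the RefSeq table of assembly TAIR10.1: 692 probes had 1 gene (690 matched), 870 had several and 1877 were not listed. The protein names are those in use for these loci. No coordinates are given, as no build is named for the array. The members and lists were chosen with earlier results of these data known. Named genes are the 6 members, the 3 nearest patterns of each member above 0 throughout, and measured members of the lists. A search for "ribosomal protein" in the RefSeq symbols and synonyms added 0 probes. No descriptions were available to search, so this does not show that the array holds no others.

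Same-numbered samples did not deviate together between the groups (correlations of -0.0063 to 0.065). Alternatives were 4 other scalings, a floor of 0.05, an offset of 0.0056, filters on dim or zero probes, samples left out, blocks, averaged pairs, other limma settings and rank tests.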

Additional observations from a re-analysis of the deposited data

Results flagged for a closer look

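In 3 of 12 groups of 6 normalised log2 values, a single sample lay apart from the remaining 5. Chance flags about 1 in 20 groups of values without ties, a rate that does not apply to PRPL29, with 5 zeros in each group. The distance of the single sample to the next, divided by the group's range, was 0.647 for PRPL34 in normal light. Sample 2 had a deposited intensity of 0.00447 there. For PRPL29 it was 1 in both groups, since high light sample 4 (0.0236) and normal light sample 1 (0.0180) held the values above 0. No sample stood apart by this measure for PRPS6, PRPS10, PRPL17 or PRPL5.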

How the results depend on the processing

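PRPS6 and PRPS10 were called lower by limma or the rank-sum test in the 26 alternatives that changed 1 choice, with log2 changes of -2.82 to -1.03 and -2.12 to -0.63. With averaged pairs on another scale as well, PRPS10 was not called as deposited (limma adjusted p = 0.12) or with a common mean (0.077). The count of 4 called genes became 2 with the replicate block, with averaged pairs, with pairs as a random block and, chosen after the data were seen, without samples 5 and 6 of both groups. It was 3 with a common mean (PRPS6 and PRPS10 lower, PRPL5 higher) or cyclic loess (PRPS6, PRPS10 and PRPL34, all lower). It was 5 with the floor of 0.05 or the offset, all lower, with PRPL29 not called. It was 2 to 4 when 1 sample was left out, namely 2 without high light sample 3, high light sample 6 or normal light sample 2. A count of 4 did not always mean the same genes. Without high light sample 1, 2 or 5, PRPL34 was called (limma adjusted p = 0.0409, 0.0285 and 0.0476) in place of PRPL17 (1 and 5) or PRPL5 (2). The rank-sum test of normalised values called PRPL34 in place of PRPL17, and as deposited 2 of the 4 were called higher. Changes turned upwards as deposited (PRPL17 0.61, PRPL5 0.95, PRPL29 0.064) and with a common mean (0.38, 0.72 and 0.017), where most probes shift upwards too. PRPL29 also turned without normal light sample 1 (1.75) and lay at -2.15 to 1.75 with 1 sample left out. The median change of the 6 genes, -1.12, was -0.28 as deposited, -1.49 with a common median, -0.42 with a common mean, -1.56 with cyclic loess and -1.96 to -1.05 with 1 sample left out. The difference of small minus large subunit over all 6 genes, -0.26, was -0.76 to 0.20 with 1 sample left out. This difference turned without high light sample 4 (0.20), the only high light sample with PRPL29 above 0. Over all probes, 543 were called higher and 757 lower, 1300 in all. As deposited these were 1698 and 194, with a common mean 1438 and 274, and with averaged pairs 330 and 429, 759 in all. Probes called lower numbered 896 with the floor of 0.05, 829 with the offset and 705 with the replicate block. They numbered 650 with pairs as a random block and 673 without samples 5 and 6 of both groups. Leaving out 1 sample gave 1191 to 1322 calls in all. No clear pairing of the samples by number was seen (4 of 12 correlated best with their own number), which does not exclude one. The replicate block gave 1195 calls in all. Under it PRPL17 had an adjusted p of 0.055 and PRPL5 one of 0.07 in limma. Values near 0 limit what can be said of PRPL34 and PRPL29.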

Other observations

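Among probes that the annotation gives to several genes, 1 was shared by 2 of the listed assembly factors of the plastid ribosome and by no other gene. Its deposited intensity was 1.69 to 2.92 in high light and 0 to 0.0528 in normal light, with 1 normal light sample at 0. Another was shared by 2 of the listed plastid translation factors, at 0.0335 to 0.104 in high light and 0.0471 to 0.173 in normal light. The signal of such a probe cannot be assigned to either gene.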
